A study of Homo sapiens with 11 samples.

Results

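The type I interferon response genes are a list of 41 human genes that cells switch on after they sense viral nucleic acid or receive interferon, and 40 of them were measured here among 19777 genes. The remaining gene of the list is not analysed here. Each gene was represented by the probe set with that single gene symbol that had the highest mean over all 11 arrays. RNA had been taken from Reh, a human leukaemia cell line of B-cell precursor type with the ETV6-RUNX1 fusion, and measured on Affymetrix whole-genome expression arrays. All values below are log2 expression as deposited, so a difference of 1 is a doubling.

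All cells stably expressed miR-125b from an integrated viral construct, introduced at a multiplicity of infection of 2.5 transducing units per cell, and all received precursor oligonucleotides with Lipofectamine. In the miR-99a group (3 arrays) the oligo was miR-99a at 66 µM. In the miR-100 group (3 arrays) it was miR-100 at 66 µM. In the combination group (3 arrays) both were given at 33 µM each. The control group (2 arrays, replicates 1 and 2) received scrambled oligo at 66 µM. A second dose followed after 72 h and the cells were harvested 48 h after it. The comparisons therefore answer whether the miR-99a and miR-100 oligos gave more or less of an interferon response than a scrambled oligo did. Any response common to every oligo, to the transfection reagent or to the miR-125b construct would be present in the control arrays too. The control arrays are shared by all comparisons with control, and the labels do not say whether replicates were separate transfections, so p-values may measure technical spread.

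Double-stranded or uncapped RNA in the cytoplasm is detected by the sensors RIG-I (DDX58) and MDA5 (IFIH1), which signal through MAVS and TBK1 to induce interferon. Interferon then acts through its receptor and the JAK kinases on a transcription complex that contains IRF9 and binds the interferon-stimulated response element, ISRE, in the promoters of its target genes. Their products block viral entry, translation and replication, and EIF2AK2 (PKR), the OAS enzymes and ADAR bind double-stranded RNA themselves.

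The introduced miRNAs are shown in their mature form because miR-99a and miR-100 share a seed and are nearly the same molecule. Sequences are those of RefSeq (GRCh38.p14), 5′ to 3′, with the seed, bases 2 to 8, in capitals. miR-99a lies at chr21:16539101-16539122 on the plus strand and miR-100 at chr11:122152275-122152296 on the minus strand. Counted from the 5′ end, they differ at 1 position, U16A from miR-99a to miR-100, outside the seed.
hsa-miR-99a-5p: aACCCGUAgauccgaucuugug
hsa-miR-100-5p: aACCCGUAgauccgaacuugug
hsa-miR-125b-5p: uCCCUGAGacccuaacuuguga

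The promoters of 4 genes on which the results below turn show an element held by 22 of the 32 genes with a promoter entry. The ISRE was searched as GAAA, any 2 bases and GAAA in a row, on both strands of RefSeq's promoter windows, which run from upstream of each start of transcription into the transcript. ISG15, DDX60, IFIT3 and IFITM1 each hold 2 matches, in capitals. They lie on the printed strand except in IFIT3, where capitals show the reverse complement, and both matches of ISG15 overlap, so that they appear as 1 run. The windows are chr1:1013247-1013546 (plus strand) for ISG15, chr4:168318703-168319002 (minus strand) for DDX60, chr10:89327747-89328046 (plus strand, the first of 2 starts) for IFIT3 and chr11:313790-314089 (plus strand) for IFITM1.
ISG15: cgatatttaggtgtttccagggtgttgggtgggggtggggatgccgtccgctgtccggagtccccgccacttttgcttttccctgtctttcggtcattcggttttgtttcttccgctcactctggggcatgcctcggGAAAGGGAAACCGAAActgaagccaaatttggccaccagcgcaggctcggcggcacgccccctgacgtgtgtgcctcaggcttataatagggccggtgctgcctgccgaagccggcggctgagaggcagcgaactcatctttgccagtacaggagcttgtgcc
DDX60: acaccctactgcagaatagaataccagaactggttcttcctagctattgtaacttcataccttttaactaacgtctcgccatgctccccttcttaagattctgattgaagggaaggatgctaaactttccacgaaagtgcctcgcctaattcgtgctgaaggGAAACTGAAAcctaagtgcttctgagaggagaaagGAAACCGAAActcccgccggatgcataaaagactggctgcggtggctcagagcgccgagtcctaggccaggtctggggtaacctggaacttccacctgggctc
IFIT3: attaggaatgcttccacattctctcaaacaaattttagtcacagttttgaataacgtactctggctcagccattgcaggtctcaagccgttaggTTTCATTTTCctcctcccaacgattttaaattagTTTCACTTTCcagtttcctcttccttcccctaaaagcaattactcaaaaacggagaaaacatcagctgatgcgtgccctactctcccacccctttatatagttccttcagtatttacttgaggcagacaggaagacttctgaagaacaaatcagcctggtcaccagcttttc
IFITM1: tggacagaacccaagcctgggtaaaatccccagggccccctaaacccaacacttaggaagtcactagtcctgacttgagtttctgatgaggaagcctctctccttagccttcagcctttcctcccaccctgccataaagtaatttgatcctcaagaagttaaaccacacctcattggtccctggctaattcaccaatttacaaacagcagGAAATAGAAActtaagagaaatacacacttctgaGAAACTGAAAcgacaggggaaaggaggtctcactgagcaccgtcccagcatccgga

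RefSeq promoters were matched for 32 of the 40 genes, and 22 of the 32 (68.8%) held the ISRE letters, against 4.38% of 27305 genes with a promoter in that table. The second interferon element, GAS, searched as TTCNNNGAA, was present in 10 of the 32 genes (31.2%), against 9.38% of all genes. These matches describe letters in a window and show no binding. GAAA runs with a shorter gap, as in the windows of OAS1 and DDX58, were not counted as ISRE.

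Against the scrambled control, no interferon response gene passed the test under any treatment when all 11 arrays were fitted by group. With the replicate number as a block, which treated and control arrays share only as a number, 4 genes were called with the combination (DDX60, SAMD9, OAS1 and ISG15, where 4.36% of all genes were) and 3 over all treatments (2.57%), all lower than control. Replicates 1 and 2 were also fitted alone because replicate 3 stood apart. There, 3 genes were called with the combination (1.47%) and 2 over all treatments (1%), also lower. In limma fitted by group over the 11 arrays and adjusted over all genes by the Benjamini-Hochberg method, 0 of 40 genes had an adjusted p under 0.05 for miR-99a (0% of all genes did), miR-100 (0%), the combination (0%) or the mean of all treatments (0%). The lowest adjusted p among the 40 genes was 0.9998 with miR-99a and with the combination. At an unadjusted p under 0.05 there were 1 of 40 with miR-99a (1% of all genes), 2 with miR-100 (1.54%), 3 with the combination (3.66%) and 4 over all treatments (2.47%). Of these, OAS3 with miR-99a was higher, while the others (IFI44, IFI44L, ISG15 and IFIT5) were lower than control.

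The differences were small in both directions. For miR-99a the median log2 difference of the 40 genes was -0.03, for miR-100 -0.02 and for the combination -0.04, against -0.01, -0.01 and 0.00 for all genes. The lowest and the highest difference of any of the 40 genes were -0.29 (DDX60, combination) and 0.20 (OAS3, miR-99a). The highest upper 95% bound was 0.48 for miR-99a, 0.54 for miR-100 and 0.54 for the combination. A doubling of the array signal relative to the scrambled oligo thus lay outside the interval for all 40 genes in each comparison. The signal was low for some of them, with IFI27 (mean 5.80) and MX1 (6.03) near the array medians of 5.95 to 5.984. The number of arrays limits this precision, and in bulk RNA a change in fewer cells and a smaller change per cell cannot be told apart.

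**Figure D1:**
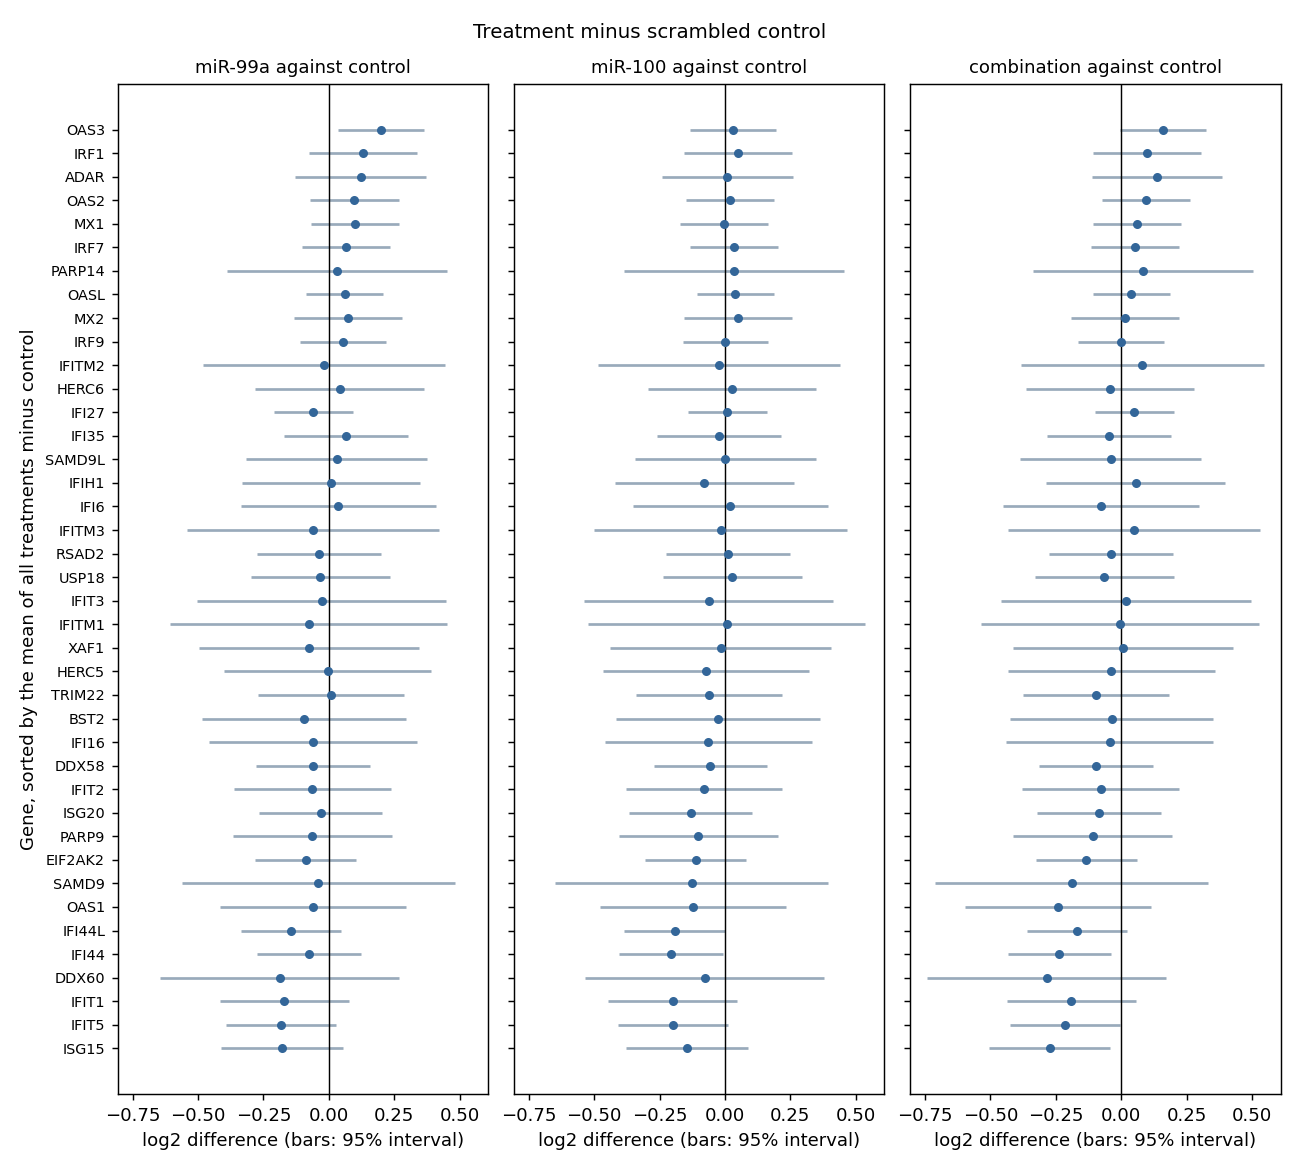
Log2 difference of each of the 40 interferon response genes from the 2 scrambled-control arrays (points, with 95% intervals from limma) for miR-99a, miR-100 and the combination, 3 arrays each. Points lie between -0.29 and 0.20, and every interval ends below 1.

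Among the sensors and RNA-binding effectors, IFIH1 measured 7.30, 7.25 and 7.48 with miR-99a, 6.90, 7.32 and 7.54 with miR-100, and 7.35, 7.32 and 7.49 with the combination, against 7.23 and 7.44 in control. The arrays of all groups overlapped for IFIH1. DDX58 measured 7.27, 7.37 and 7.46 with miR-99a, 7.24, 7.41 and 7.47 with miR-100, and 7.28, 7.23 and 7.48 with the combination, against 7.38 and 7.48 in control. It overlapped likewise. EIF2AK2, the kinase that stops translation on double-stranded RNA, measured 9.58, 9.55 and 9.56 with miR-99a, 9.53, 9.40 and 9.68 with miR-100, and 9.52, 9.61 and 9.42 with the combination, against 9.67 and 9.63 in control. Its miR-99a and combination arrays were all below both control arrays, with differences of -0.09 and -0.13. ADAR, which edits adenosine to inosine in double-stranded RNA, measured 10.79, 10.85 and 10.99 with miR-99a, 10.62, 10.66 and 11.02 with miR-100, and 10.82, 10.92 and 10.94 with the combination, against 10.72 and 10.79 in control. Its combination arrays were all above both control arrays, with a difference of 0.14 ± 0.11 (SE) and an adjusted p of 0.9998 in limma. DDX60, a helicase that assists RIG-I, measured 7.42, 7.42 and 7.94 with miR-99a, 7.59, 7.44 and 8.09 with miR-100, and 7.44, 7.29 and 7.76 with the combination, against 7.78 on both control arrays. Its combination arrays were all below control, with a difference of -0.29 ± 0.21 (SE) over all 3 and of -0.42 in replicates 1 and 2 only.

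The transcription factors of the pathway were also near control. IRF9, the DNA-binding subunit of the interferon-activated complex, averaged 6.97 ± 0.06 on miR-99a arrays, 6.92 ± 0.08 on miR-100 arrays and 6.91 ± 0.08 on combination arrays (SD, n = 3 each), against 6.91 ± 0.00 in control (SD, n = 2). IRF7, which amplifies interferon production, averaged 7.16 ± 0.06, 7.13 ± 0.05 and 7.15 ± 0.10 in those groups, against 7.10 ± 0.04 in control. IRF1 measured 8.45, 8.68 and 8.51 with miR-99a, 8.39, 8.44 and 8.56 with miR-100, and 8.45, 8.55 and 8.54 with the combination, against 8.31 and 8.52 in control. Its difference over all treatments was 0.09 ± 0.08 (SE), and without control replicate 1 it turned to -0.02. The second IRF1 probe set also gave -0.02 over all treatments, with all arrays.

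ISG15, the ubiquitin-like protein attached to many targets after interferon, was among the genes farthest below control. It measured 9.26, 9.33 and 9.21 with miR-99a, 9.32, 9.08 and 9.51 with miR-100, and 9.14, 9.23 and 9.16 with the combination, against 9.43 and 9.46 in control. Only miR-100 replicate 3 was above the control arrays. The combination difference was -0.27 ± 0.11 (SE) with an adjusted p of 0.9998 in limma. USP18, which removes ISG15 from proteins and damps receptor signalling, averaged 6.64 ± 0.10 on miR-99a arrays, 6.71 ± 0.18 on miR-100 arrays and 6.61 ± 0.14 on combination arrays (SD, n = 3 each), against 6.68 ± 0.17 in control (SD, n = 2).

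IFI44 and its relative IFI44L, both induced by interferon, lay below both control arrays on all 9 treated arrays. IFI44 measured 8.52, 8.61 and 8.48 with miR-99a, 8.40, 8.25 and 8.57 with miR-100, and 8.31, 8.40 and 8.42 with the combination, against 8.62 and 8.61 in control. IFI44L measured 6.74, 6.72 and 6.86 with miR-99a, 6.74, 6.59 and 6.85 with miR-100, and 6.71, 6.69 and 6.84 with the combination, against 6.94 and 6.90 in control. Over all treatments IFI44 differed from control by -0.17 ± 0.08 and IFI44L by -0.17 ± 0.07 (SE), each with an adjusted p of 0.9999 in limma. The second IFI44 probe set gave 0.04 with miR-99a, -0.08 with miR-100, -0.17 with the combination and -0.07 over all treatments.

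The IFIT proteins bind viral RNA and block its translation. IFIT5 measured 7.97, 7.95 and 7.96 with miR-99a, 8.01, 7.80 and 8.03 with miR-100, and 7.91, 8.09 and 7.80 with the combination, against 8.11 and 8.19 in control. It was the third gene, with IFI44 and IFI44L, below both control arrays on every treated array. That made 3 of 40 below, where 1.6% of all genes were, and 0 of 40 were above (1.31%). The second IFIT5 probe set gave -0.08 over all treatments, where the brighter one gave -0.20. IFIT1 measured 6.60, 6.80 and 7.00 with miR-99a, 6.70, 6.73 and 6.88 with miR-100, and 6.68, 6.83 and 6.83 with the combination, against 7.04 and 6.90 in control. Its miR-100 and combination arrays were below both control arrays. IFIT2 and IFIT3 differed by no more than 0.08 from control in any treatment mean, and their arrays overlapped with control.

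Of the oligoadenylate synthetases, which make the second messenger that activates RNA decay, OAS3 had the lowest p of the genes higher than control with miR-99a and with the combination. It measured 8.20, 8.30 and 8.35 with miR-99a, 8.12, 8.03 and 8.19 with miR-100, and 8.22, 8.29 and 8.23 with the combination, against 8.04 and 8.12 in control. The miR-99a and combination arrays were all above control, by 0.20 ± 0.07 and 0.16 ± 0.07 (SE), while miR-100 overlapped with control. The adjusted p was 0.9998 in both in limma. The second OAS3 probe set gave 0.01 and -0.08, and the mean of both probe sets 0.11 with miR-99a and 0.04 with the combination. OAS1 measured 8.91, 8.96 and 9.20 with miR-99a, 8.84, 8.74 and 9.30 with miR-100, and 8.65, 8.84 and 9.03 with the combination, against 9.07 and 9.10 in control. It was therefore below control on the combination arrays, in the direction opposite to OAS3. OAS2 differed by 0.07 ± 0.07 and OASL by 0.05 ± 0.06 (SE) over all treatments.

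The dynamin-like antiviral GTPases MX1 and MX2 were even across the groups, with group means of 6.08, 5.98 and 6.04 for MX1 and 6.65, 6.63 and 6.59 for MX2 with miR-99a, miR-100 and the combination, against 5.98 and 6.58 in control. RSAD2 (viperin), which halts viral RNA synthesis, averaged 6.65 ± 0.06, 6.70 ± 0.20 and 6.65 ± 0.11 in the same order (SD, n = 3 each), against 6.69 ± 0.00 in control (SD, n = 2).

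By treatment, 2 of 40 genes were above both control arrays on all 3 miR-99a arrays (OAS2 and OAS3, where 7.55% of all genes were) and 6 were below (7.88%). With miR-100, 0 were above (7.18%) and 5 below (6.19%), and with the combination 2 were above (9.11%) and 8 below (11.4%). In each treatment the share of the 40 genes above control was under that of all genes, and the share below it was over that of all genes. No test was made of these shares.

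The miR-99a and miR-100 oligos were compared with each other because they differ at only 1 base. At the same 66 µM dose and the same times, 0 of 40 genes differed between miR-100 and miR-99a in limma (0% of all genes), and 1 of 40 had an unadjusted p under 0.05 (0.981%). That gene was OAS3, at 8.12, 8.03 and 8.19 with miR-100 and 8.20, 8.30 and 8.35 with miR-99a, and it was the 1 gene of 40 with all miR-100 arrays below all miR-99a arrays (2.25% of all genes), while 0 were above (2.42%). The 95% intervals of the 40 differences lay between -0.55 and 0.56, and their SEs were 0.06 to 0.22. Against the single oligos, the combination, which had a different dose of each, gave 0 of 40 (0%) in limma, 0 of 40 at an unadjusted p under 0.05 (2.28%), and 0 of 40 with all arrays above (0.981%) or below (0.612%) those of the single oligos.

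**Figure D2:**
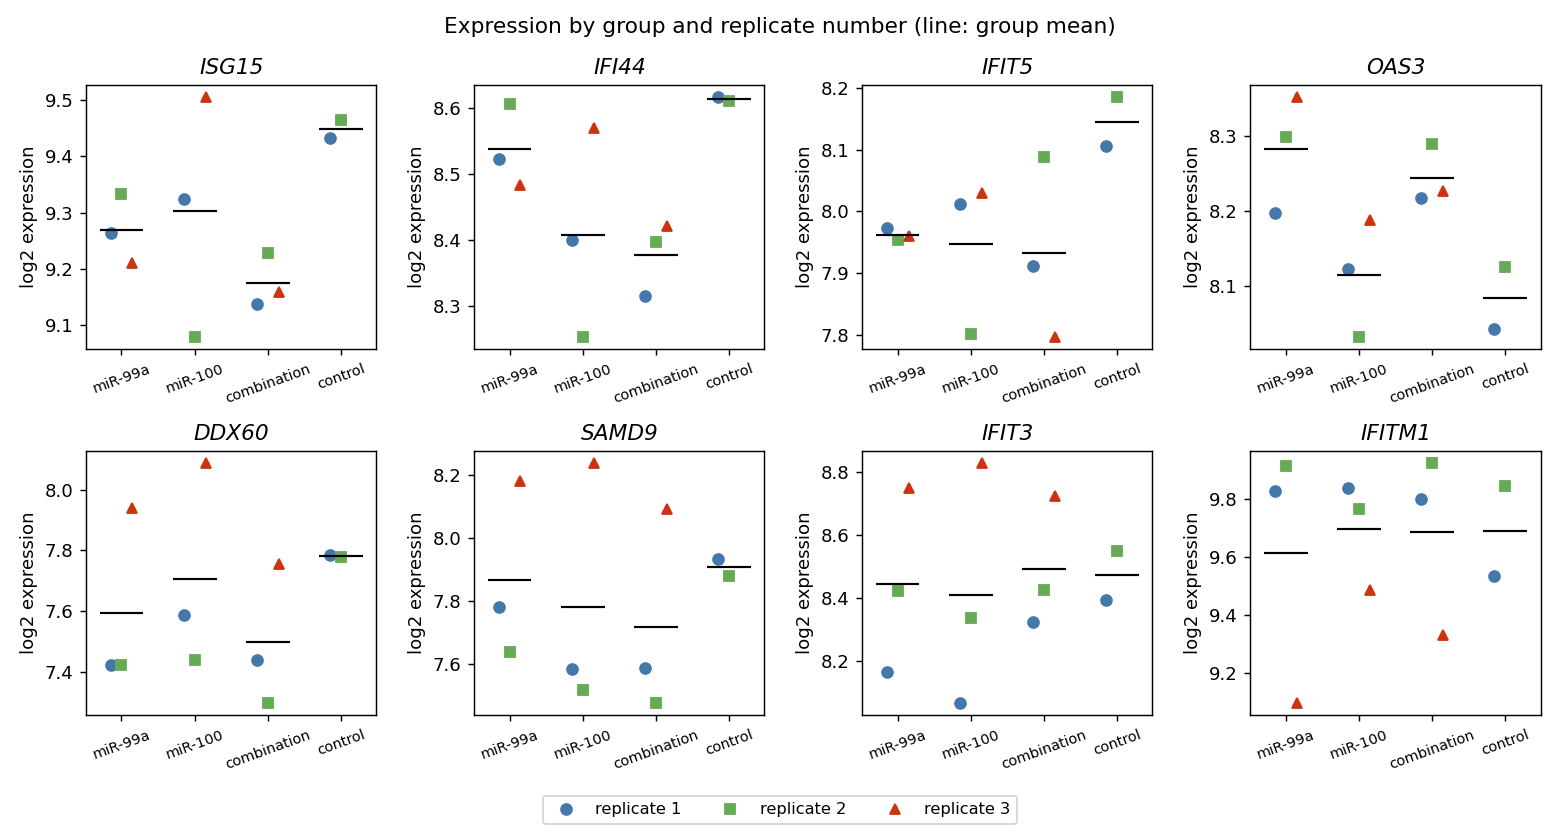
Log2 expression of 8 interferon response genes on each of the 11 arrays by group, with the symbol giving the replicate number and the line the group mean. ISG15, IFI44 and IFIT5 lie mostly below control and OAS3 mostly above it, while for DDX60, SAMD9, IFIT3 and IFITM1 the replicate 3 arrays of all 3 treatments stand apart from replicates 1 and 2.

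The replicate number separated the treated arrays more than the oligo did. On the first principal component of all genes (53.2% of the variance) the 3 replicate 3 arrays lay at -21.4 to -18.0, the other 6 treated arrays at 7.78 to 12.4 and the control arrays at -3.42 and 2.12. The control arrays analysed are replicates 1 and 2. Deviations from the group means correlated over all genes in all 9 pairs of treated arrays with the same number (0.168 to 0.816). The 18 treated pairs with different numbers gave -0.676 to 0.423, and 6 of them, of replicate 1 with replicate 2, were positive. Deviations cancel within a group, so positive values in same-numbered pairs pull the other pairs down. The 18 values are therefore not separate evidence.

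Many interferon response genes differed by replicate number, in both directions. In limma with treatment and replicate number as terms over the 9 treated arrays, 25 of 40 genes (62.5%) differed between replicate 3 and the mean of replicates 1 and 2, where 30.3% of all genes did. Of these, 20 were higher in replicate 3 (17.7% of all genes) and 5 were lower (12.6%). The median difference was 0.16 over the 40 genes, whose median level was 7.87, and 0.00 over all genes. By level, all genes with a mean of 6 to 8 gave a median of 0.02. Those at 8 to 10 gave 0.13 and those at 10 to 12 gave -0.09. Of the 40 genes, 29 moved in 1 direction in all 3 treatments, among them all 25 called. The 25 were called on the mean difference over the 3 treatments, so their agreement was largely set by that choice. It was not counted over all genes. Without overlap between the arrays, 20 of 40 genes were above (14.9% of all genes) and 5 below (11%). The SE was 0.07 for all 40 differences because limma's moderation gave nearly 1 common spread to all genes. The comparison was chosen with earlier results of these data known, where replicate 3 stood apart. Its p-values therefore describe a split chosen from these data and do not measure spread between replicate numbers.

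SAMD9, a cytoplasmic antiviral protein that restricts poxviruses, had the largest difference of the 40 genes. It measured 8.18, 8.24 and 8.09 on the replicate 3 arrays of miR-99a, miR-100 and the combination, against 7.47 to 7.78 (median 7.59) on the 6 arrays of replicates 1 and 2, and 7.94 and 7.88 in control. The difference was 0.57 ± 0.07 (SE, adjusted p = 2.75e-15 in limma). DDX60 measured 7.94, 8.09 and 7.76 in replicate 3, against 7.29 to 7.59 (median 7.43) in replicates 1 and 2, with a difference of 0.50 and an adjusted p of 1.24e-11. Both genes had no overlap between the replicate numbers, and DDX60 was at 7.78 on both control arrays, within the replicate 3 range.

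IFIT3, which stabilises IFIT1 on RNA, measured 8.75, 8.83 and 8.73 in replicate 3, against 8.06 to 8.42 (median 8.33) in replicates 1 and 2, and 8.39 and 8.55 in control. The difference was 0.48 (adjusted p = 6.22e-11 in limma). The other IFIT genes called were IFIT2 (0.26) and IFIT1 (0.18), both higher, while IFIT5 was at -0.03 and was not called. XAF1, a pro-apoptotic protein, was higher by 0.45, as was PARP14, an ADP-ribosyltransferase, by 0.45. HERC5, the ligase that attaches ISG15, was higher by 0.41 and IFI16, a DNA sensor, by 0.40. OAS1 was higher by 0.35, at 9.20, 9.30 and 9.03 in replicate 3 against 8.65 to 8.96 (median 8.84) in replicates 1 and 2. IFIH1 (0.26), ADAR (0.21), RSAD2 (0.21) and DDX58 (0.17) were also higher. Without the miR-100 replicate 3 array 18 of the 40 genes were called in limma (25.3% of all genes), and IFIT1 (0.19), IFIH1 (0.17), ADAR (0.12), RSAD2 (0.14), USP18 (0.15), DDX58 (0.18) and IFI35 (0.08) were not among them. After quantile normalization 22 were called (32.6% of all genes), without IFIT1 (0.13), DDX58 (0.11) and IFI35 (0.10).

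The 5 genes that were lower in replicate 3 include all 3 IFITM genes, whose membrane proteins stop viruses entering from endosomes. IFITM1 measured 9.09, 9.48 and 9.33 on the replicate 3 arrays of miR-99a, miR-100 and the combination, against 9.76 to 9.92 (median 9.83) in replicates 1 and 2, and 9.53 and 9.84 in control. It differed by -0.54 (adjusted p = 1.24e-13 in limma), IFITM3 by -0.49 and IFITM2 by -0.45. These genes are near-identical paralogs whose probe sets can share transcripts, so the 3 values are not separate evidence. BST2 (tetherin), which holds budding virus at the cell surface, differed by -0.35, and IFI6 by -0.35. Interferon-induced genes therefore moved in both directions on the same arrays.

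Several classical targets did not separate by replicate number. ISG15 differed by 0.06, IFI44 by 0.08, MX1 by 0.05, OAS2 by 0.05, OAS3 by 0.06 and EIF2AK2 by 0.02, all with adjusted p above the threshold. The transcription factors IRF1 (0.05), IRF9 (0.03) and IRF7 (-0.07) were not called either, although the second IRF1 probe set gave 0.19. The ISRE letters were present in 9 of 17 genes with a promoter entry that were higher in replicate 3, in 4 of 4 that were lower and in 9 of 11 that were not called.

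**Figure D3:**
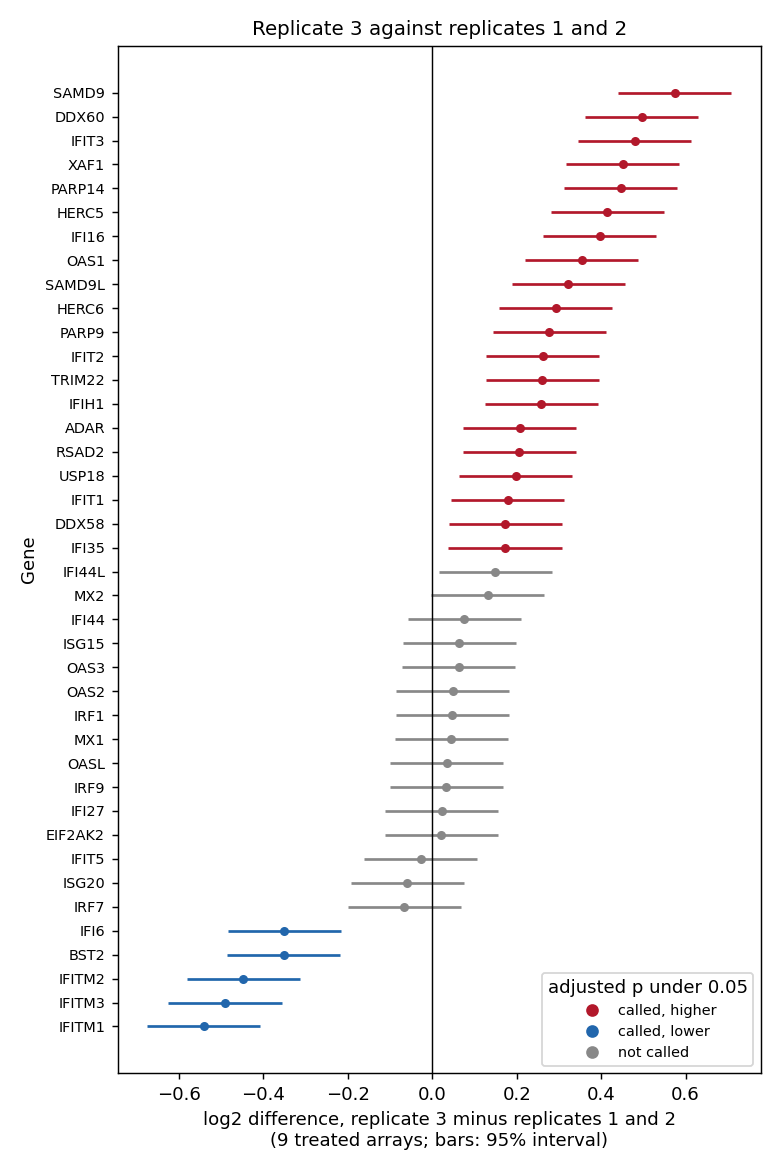
Log2 difference between replicate 3 and the mean of replicates 1 and 2 for the 40 interferon response genes over the 9 treated arrays (points, with 95% intervals from limma). The 20 genes in red were higher, the 5 in blue lower and those in grey were not called, from SAMD9 at 0.57 to IFITM1 at -0.54.

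**Figure D4:**
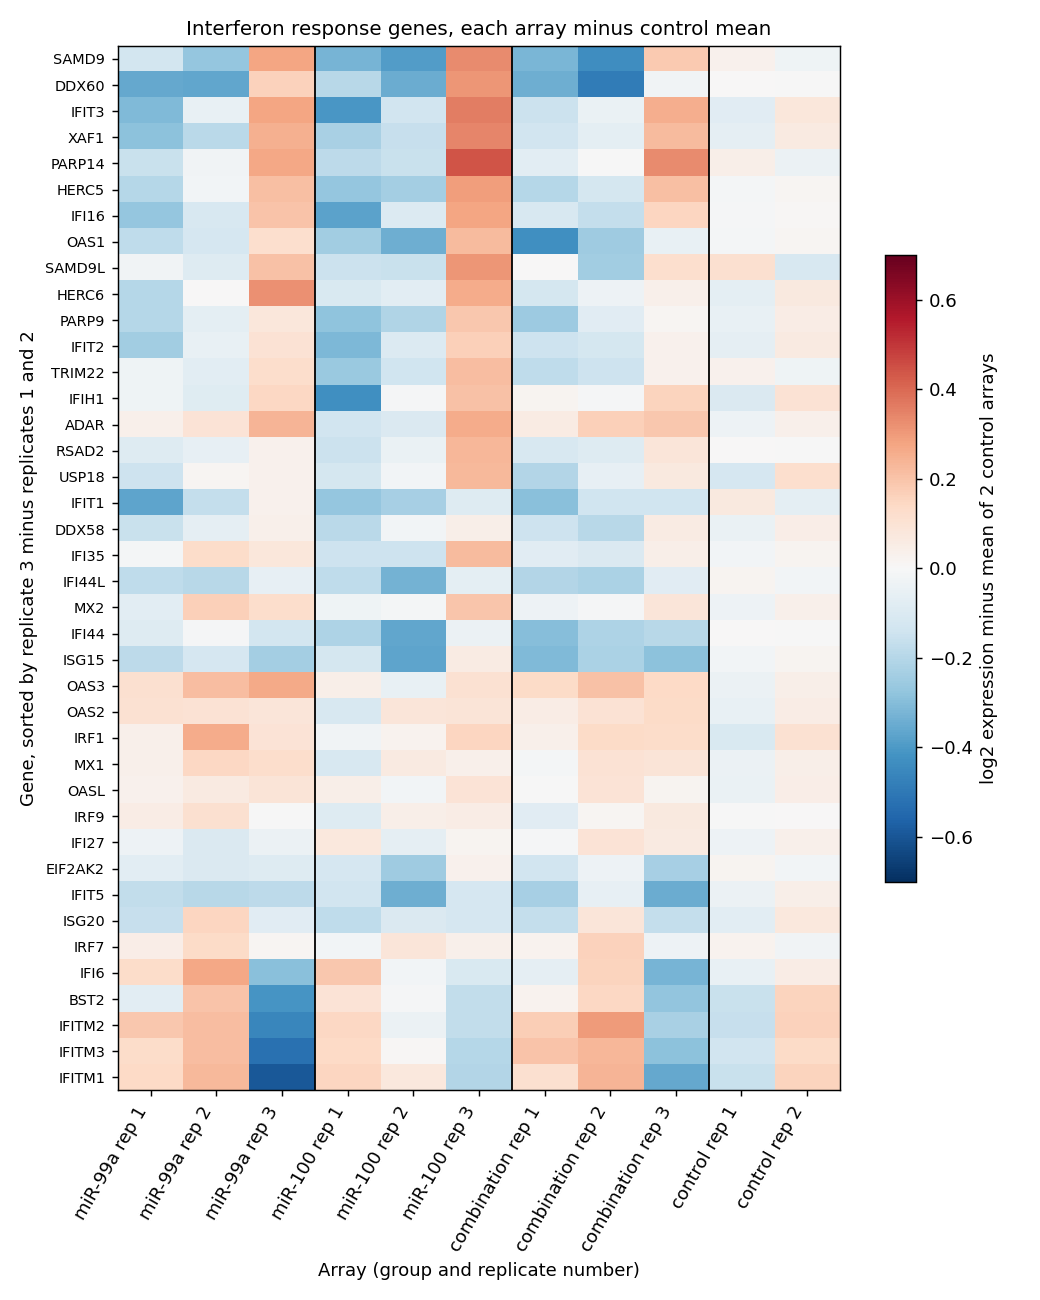
Log2 expression of the 40 interferon response genes on each of the 11 arrays minus the mean of the 2 control arrays, with genes sorted by the replicate 3 difference. The replicate 3 columns of the 3 treatments show higher values at the top and lower values at the bottom, and columns of replicates 1 and 2 show mostly the opposite.

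The control mean lay between the mean of replicate 3 and that of replicates 1 and 2 for 23 of the 25 genes, ADAR and IFIT1 being the exceptions. These 25 genes were picked by that difference, and the share over all genes was not counted. On the first principal component of all genes the control arrays (-3.42 and 2.12) also lay between both replicate sets, so this position is not particular to these genes. The median of the 40 genes differed from the control mean by 0.04 to 0.13 on the 3 replicate 3 arrays and by -0.14 to -0.02 on the other 6 treated arrays. The array's Dap, Lys and Phe control probe sets moved with the replicate number as well, at a mean log2 signal of 7.86 to 8.38 in replicate 3 and 8.68 to 9.05 in replicates 1 and 2, with 8.89 and 8.13 in control. Their part in the result was not tested. The ACTB 3′ minus 5′ signal overlapped, at 2.52 to 2.85 in replicate 3 and 2.45 to 3.17 in replicates 1 and 2.

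Since the replicate 3 arrays stood apart and no replicate 3 of the control is analysed here, the comparisons with control were repeated on replicates 1 and 2 alone. On those 6 treated arrays, 14 of the 40 genes were below both control arrays with every treatment (10.9% of all genes) and 0 were above (5.28%). The 14 included ISG15, IFI44, IFI44L, IFIT1, IFIT5, OAS1, DDX60, RSAD2, SAMD9, EIF2AK2, XAF1 and PARP9. The count used 1 probe set per gene, and other probe sets were not counted on these arrays. With all replicates, other probe sets gave both signs over all treatments. XAF1 had 0.15 (-0.03 for the one used) and PARP9 0.07 (-0.09), while IFIT5 had -0.08 (-0.20) and SAMD9 -0.07 (-0.12). In limma on these 8 arrays, 3 of 40 genes were called with the combination (1.47% of all genes), all lower than control (0.546%). They were DDX60 (-0.42, adjusted p = 0.0171), SAMD9 (-0.38, 0.0294) and OAS1 (-0.34, 0.0438). DDX60 measured 7.44 and 7.29 with the combination, against 7.78 on both control arrays. On the replicate 3 arrays left out, DDX60, SAMD9 and OAS1 averaged 0.15, 0.26 and 0.10 above the control mean. Over all treatments 2 were called (1% of all genes), DDX60 at -0.35 and SAMD9 at -0.31, also lower (0.612%), and with each single oligo 0 (0%). None of the 40 genes was called higher in limma, where 0.92% of all genes were with the combination and 0.389% over all treatments. These arrays were chosen by their values. The control mean lay between the replicate sets for 23 of the 25 genes above, themselves picked by the replicate 3 difference. Leaving out replicate 3 lowers the treated means of genes higher in it, so oligo and replicate differences cannot be told apart here.

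Interferons, sensors, receptors and further targets outside the 40 genes were compared with control in the fit over all 11 arrays. The 13 interferon genes measured had means of 4.84 to 5.67, below the array medians of 5.95 to 5.984, and IFNB1 lay between 5.31 and 5.62 on all 11 arrays. None of the 13 interferon genes, of 21 sensors and adaptors or of 14 receptor, kinase and related signalling genes was called against control in limma. Nor was any of 45 further interferon-induced genes, of 13 feedback inhibitors or of 13 NF-kappa B targets. Over all treatments, 1 receptor gene (IFNGR1, -0.22 ± 0.08) and 1 further induced gene (PML, 0.16 ± 0.06, SE) had an unadjusted p under 0.05, as 2.47% of all genes did. IFNGR1, a receptor chain for interferon gamma, ranged from 9.99 to 10.34 on the treated arrays and was at 10.37 and 10.41 in control.

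Between replicate 3 and replicates 1 and 2, 30.3% of all genes were called. Receptor, kinase and related signalling genes were called in 6 of 14, all higher, among them JAK1 (0.32), TYK2 (0.27) and IFNAR1 (0.22). Sensors and adaptors were called in 7 of 21, 5 higher and 2 lower, with CGAS at -0.49 and TRIM25 at 0.34. The further induced genes were called in 24 of 45, 19 higher and 5 lower, with NMI at -0.52, PNPT1 at 0.43 and B2M at -0.42. Of the interferon genes only IFNG was called, at -0.21, and IFNB1 was at -0.11. NF-kappa B targets were called in 4 of 13 and feedback inhibitors in 5 of 13. The shares of sensors and NF-kappa B targets were near that of all genes.

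The cells carried the markers of B-cell precursors, with control means of 13.09 for DNTT, 12.26 for IGLL1, 12.02 for EBF1 and 11.58 for PAX5, while VPREB1 was at 5.50. The summed log2 level of the 9 B-lineage markers was 94.7 to 95.8 with miR-99a, 94.5 to 95.6 with miR-100 and 94.9 to 96.7 with the combination, against 94.4 to 95.8 in control. The 6 T and NK cell markers had means of 5.58 to 5.97, and the 8 myeloid and dendritic cell markers 5.21 to 7.50. In replicate 3, 3 of 9 B-lineage markers were called, 1 higher and 2 lower, and 0 of the 18 markers of other cell types, against 30.3% of all genes.

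A second probe set was available for 21 of the 40 genes. Over 28 such probe sets, 16 had the same sign as the first in the comparison of all treatments with control and 23 in the replicate 3 comparison. Of the 25 genes called in replicate 3, 13 had such probe sets, and 16 of their 18 had the same sign. The other called genes, DDX60, HERC5 and the IFITM genes among them, had no second probe set. These shares were not counted over all genes. IFIH1 was the exception among the sensors, since both of its other probe sets, with means near 5.7, gave 0.00 and -0.23 where the brighter one gave 0.26. The second OAS1 probe set gave -0.03 with the combination and 0.03 in replicate 3, where the brighter one gave -0.24 and 0.35.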

How the data were processed

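The arrays measured total RNA, labelled with the maker's one-cycle kits per the labels. The deposited values are log2, as their range of 4.398 to 14.839 shows, and array medians of 5.95 to 5.984 show that they were scaled between arrays. The sources used here do not give the authors' summary, background and normalization methods, and such steps can shift values at high intensity. Of 54675 probe sets, 62 control probe sets, 1801 listed with several genes and 11777 with no gene were left out, which left 41091 for 19777 genes.

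Group means over 11 arrays were fitted in limma 3.58.1 (R 4.3.3) with lmFit and eBayes, and p-values were adjusted over all genes (threshold 0.05). The replicate 3 contrast used the 9 treated arrays with treatment and replicate number as terms. The fits were checked on simulated data with independent noise on each array. That noise was not shared by replicate number, so the check does not cover this feature of the arrays. Same-numbered treated arrays deviated together in 9 of 9 pairs, and differently numbered ones in 6 of 18 (up to 0.423). Both counts are tied, because deviations cancel within a group. Treated and control arrays of the same number did so in 3 of 6 (-0.152 to 0.438). The deviations of 2 control arrays mirror each other, so these values cannot show whether the numbers pair treated with control arrays. The genes named are those with the 3 lowest p in each direction in each comparison with control, the 5 largest replicate 3 differences, a fixed set of classical targets, and the 2 lowest p of each other list. Further genes were named after their values were seen. The genes, the lists and the replicate 3 comparison were chosen with earlier results of these data known. Alternatives were the replicate block, quantile normalization, genes at or above the median level, the mean of all probe sets, eBayes with trend and robust, replicates 1 and 2 only, and leaving out each array. Gene names were matched to RefSeq for 19735 genes. DDX58 is matched there under the symbol RIGI.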

Additional observations from a re-analysis of the deposited data

How the results depend on the processing

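Against control, the count of genes called was 0 under quantile normalization, the filter on low genes, the mean of all probe sets, eBayes with trend and robust, and without each of the 11 arrays. With the replicate block it was 4 with the combination (DDX60 -0.45, SAMD9 -0.38, OAS1 -0.36 and ISG15 at -0.29 with an adjusted p of 0.0461) and 3 over all treatments (DDX60, SAMD9 and OAS1), all lower than control. With replicates 1 and 2 only it was 3 with the combination and 2 over all treatments. Treated and control arrays share only a number, so the block is not a pairing by design, and its background was 4.36% of all genes with the combination and 2.57% over all treatments. The block changed no count of these genes between miR-100 and miR-99a or between the combination and the single oligos. Both settings gave 0 for the single oligos against control, where the block called 0.0253% of all genes with miR-99a and 0.0354% with miR-100.

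With miR-100, IRF1 reversed to -0.0009 in replicates 1 and 2 only and without miR-100 replicate 3, and to -0.06 without control replicate 1. MX2 reversed to -0.02 under the first of these and without miR-100 replicate 3. OASL reversed to -0.0013 with the mean of all probe sets and to -0.0054 without control replicate 1. Over all treatments, IRF1 reversed to -0.02 without control replicate 1. The other genes with the lowest p against control or the largest replicate 3 differences kept their sign, while the median of the 40 genes over all treatments ranged from -0.09 to 0.02 without single arrays. Leaving out single arrays, IRF1 ranged from -0.059 to 0.157 with miR-100 and from -0.0152 to 0.20 over all treatments, MX2 from -0.0215 to 0.0899 and OASL from -0.0054 to 0.085 with miR-100.

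The replicate 3 count was 18 to 25 without each array (18 without miR-100 replicate 3) and 22 of the 25 remained with quantile normalization. IFIH1 dropped to 0.01 with the mean of all probe sets. The arrays, 2 to 3 a group, limit what size of difference could be called.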
